A study of Homo sapiens with 12 samples.

Results

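The genes described here encode the ligands that natural killer (NK) cells read on a target cell through their activating receptors NKG2D, NKp30 and DNAM-1. They are 9 of the 60609 genes in the count tables of K562 cells and were chosen by symbol: MICA, MICB, ULBP1, ULBP2 and ULBP3 for NKG2D, NCR3LG1 and BAG6 for NKp30, and PVR and NECTIN2 for DNAM-1. K562, an established human cell line that came from blast crisis of chronic myeloid leukemia, is the classic target cell of NK cell killing assays. The cells were treated for 48 h with 10 μM FT671, which inhibits the deubiquitinating enzyme USP7, or with the solvent DMSO, and RNA-seq gave 3 libraries for each treatment. The labels name no other agent and no genetic change, and all 6 libraries come from this one line. The comparison asks how USP7 inhibition changed transcript levels in leukemic cells. Histone mark ChIP-seq of K562 cells after 24 h belongs to the same series and was not analysed here.

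NK cells kill without prior sensitisation when activating signals outweigh the inhibitory signals that come mainly from HLA class I. NKG2D is the receptor for MICA, MICB and the ULBP proteins, relatives of HLA class I that appear on stressed, infected and transformed cells. NKp30 binds B7-H6, the product of NCR3LG1, on tumor cells, and it also binds BAG6, a chaperone for hydrophobic protein segments that can be released from cells. DNAM-1 binds PVR (CD155) and NECTIN2 (CD112), adhesion molecules that the inhibitory receptors TIGIT, CD96 and PVRIG compete for.

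Ligand transcripts differed in both directions after FT671, and the numbers called higher and lower were close to the shares over all genes tested. Of the 9 genes, 8 passed the filter on low counts; ULBP3 did not. At an adjusted p threshold of 0.05 (edgeR quasi-likelihood test, Benjamini-Hochberg over all 13895 genes tested), 2 members were higher after FT671, namely MICA and NCR3LG1, where 23.6% of all genes tested were higher. PVR and NECTIN2, both DNAM-1 ligands, were the 2 members that were lower, where 26.5% of all genes tested were lower. The other 4 members tested, MICB, ULBP1, ULBP2 and BAG6, did not pass. In 4 members every FT671 library was above every DMSO library in CPM, the counts scaled to library size,, as in 26.8% of all genes tested, and in 2 members every FT671 library was below, as in 30.3%. The members' median log2 fold change was -0.03, against -0.01 for all genes tested. At the stricter threshold of 1e-05 used in the study's methods, NCR3LG1 alone was higher (1.79% of all genes) and 0 members were lower (4.13% of all genes) by edgeR, against 2 lower at 0.05.

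**Figure D1:**
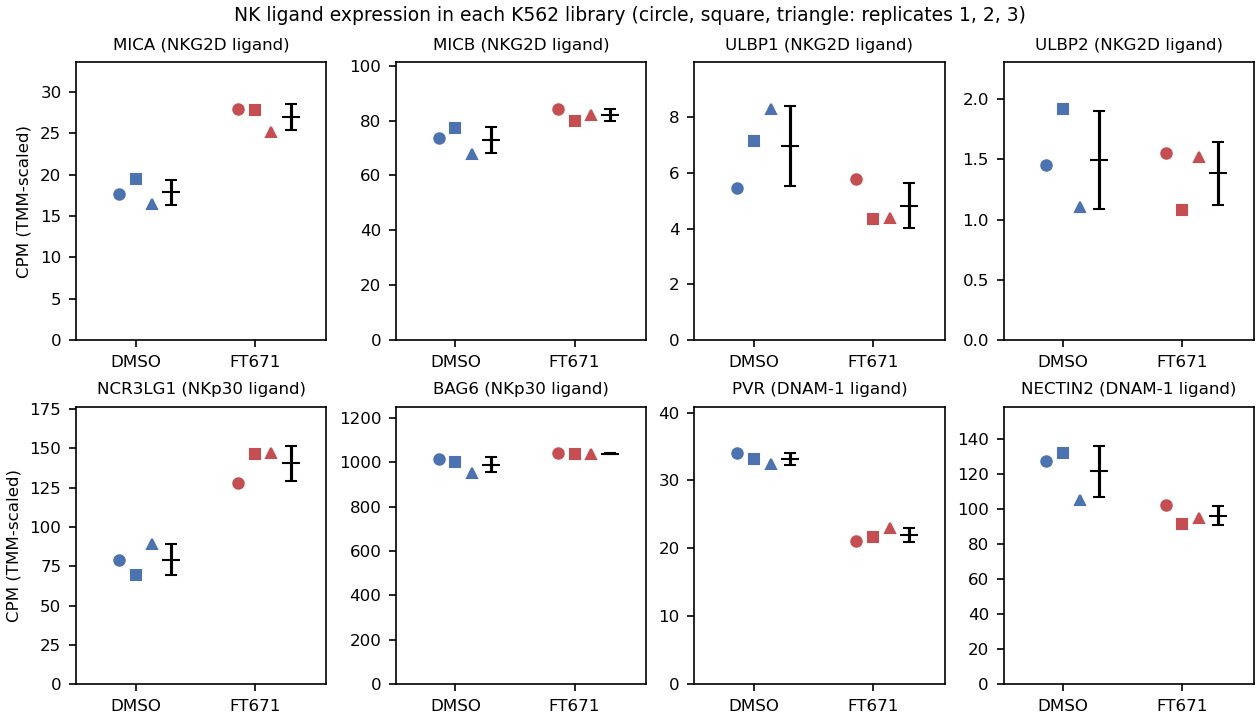
Expression of the 8 ligand genes tested, in TMM-scaled CPM on linear axes from 0, with 3 DMSO and 3 FT671 libraries as points and the mean and SD of each group. NCR3LG1 and MICA lie higher in all 3 FT671 libraries, and PVR and NECTIN2 lie lower.

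Total counts ranged from 5320245 to 14250500 in the DMSO libraries and from 4555220 to 11437804 in the FT671 libraries, and the floor of 3 counts corresponded to 0.208 to 0.666 CPM, which covers counting error only. The targeted enzyme's own transcript, USP7, went from 119 ± 12.3 to 33.1 ± 3.38 CPM (SD, n = 3; log2 fold change -1.83, adjusted p = 2.66e-08), and TRIM27, its partner in the study, from 101.9 ± 7.07 to 77.1 ± 5.39 CPM (-0.41, adjusted p = 0.00125). All 10 erythroid markers that characterise K562 were listed and 9 were tested. They summed to 1280 to 1320 CPM in DMSO and 1150 to 1200 CPM in FT671, with 4 higher and 5 lower (23.6% and 26.5% of all genes tested). The marker not tested was HBE1, with 13, 6 and 2 counts in DMSO and 6, 6 and 6 in FT671. The 10 NK cell markers summed to 9.28 to 11.5 CPM in DMSO and 3.78 to 7.15 CPM in FT671, with KLRD1, GZMB and KLRC1 at 0 in all libraries, and 7.91 CPM of the DMSO level was PRF1, the perforin gene. The 7 T and B cell markers summed to 18.9 to 23.5 CPM in DMSO and 26.9 to 32.9 CPM in FT671, most of it CD3D, with 2 of the 7 at 0 in all libraries. The 8 fibroblast and endothelial markers summed to 22.0 to 22.4 and 21.5 to 22.6 CPM, with 3 at 0 in all libraries. The part of these marker changes in the ligand results was not tested. In bulk RNA, fewer cells that express a gene and less RNA of that gene per cell cannot be told apart.

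The 5 genes shown next are those that moved and MICB, the near relative of MICA that did not pass. The sequences are the 250 bases before the RefSeq transcription start (GRCh38.p14 reference, not read from these cells), written 5′ to 3′ in the direction of the gene. Capitals mark every match to the motifs searched.
MICA, chr6:31403345-31403594, plus strand: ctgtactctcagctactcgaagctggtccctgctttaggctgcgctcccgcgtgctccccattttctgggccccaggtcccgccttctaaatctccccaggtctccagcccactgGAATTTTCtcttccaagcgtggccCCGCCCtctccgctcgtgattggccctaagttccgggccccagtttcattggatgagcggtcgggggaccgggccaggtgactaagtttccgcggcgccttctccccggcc
MICB, chr6:31497895-31498144, plus strand: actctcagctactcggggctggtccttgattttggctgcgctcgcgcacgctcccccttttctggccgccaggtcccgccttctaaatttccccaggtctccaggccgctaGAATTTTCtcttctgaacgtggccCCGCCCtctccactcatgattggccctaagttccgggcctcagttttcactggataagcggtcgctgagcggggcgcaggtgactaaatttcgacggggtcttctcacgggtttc
NCR3LG1, chr11:17351550-17351799, plus strand: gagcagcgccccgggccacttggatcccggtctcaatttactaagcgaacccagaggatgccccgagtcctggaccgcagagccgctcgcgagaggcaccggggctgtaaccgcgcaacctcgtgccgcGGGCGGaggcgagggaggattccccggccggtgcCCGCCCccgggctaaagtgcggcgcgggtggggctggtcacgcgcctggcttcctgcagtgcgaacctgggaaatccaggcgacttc
PVR, chr19:44643660-44643909, plus strand: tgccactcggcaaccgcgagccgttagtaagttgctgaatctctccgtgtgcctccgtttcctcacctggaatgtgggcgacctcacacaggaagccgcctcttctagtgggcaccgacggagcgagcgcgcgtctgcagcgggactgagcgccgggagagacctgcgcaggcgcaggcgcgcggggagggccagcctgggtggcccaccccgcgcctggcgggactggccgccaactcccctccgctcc
NECTIN2, chr19:44846047-44846296, plus strand: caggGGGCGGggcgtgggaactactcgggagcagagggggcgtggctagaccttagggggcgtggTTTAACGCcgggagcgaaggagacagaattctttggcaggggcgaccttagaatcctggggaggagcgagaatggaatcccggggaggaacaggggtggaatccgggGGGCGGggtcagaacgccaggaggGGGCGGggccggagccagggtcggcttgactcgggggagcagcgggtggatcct
MICA and MICB share 86.2% identity over 239 aligned bases of these windows, and both hold a GC box and, upstream of it, a heat shock element core, at -111 to -106 and -135 to -128 in MICA and at -115 to -110 and -139 to -132 in MICB (negative positions count back from the start base). The GC box GGGCGG, which Sp1 family factors bind, was in 42.6% of 35116 RefSeq promoter windows of this length, on either strand, and the heat shock core GAANNTTC in 5.78%. NCR3LG1 held 2 GC boxes. NECTIN2 held 3 GC boxes and an E2F element, TTTNNCGC, which 5.92% of windows hold. PVR held none of the 6 motifs, which also included the cAMP response core TGACGT (7.10% of windows), the C/EBP-ATF element TGATGNAA (3.14%) and the E-box CACGTG (6.35%). A GC box was thus present upstream of 2 genes that rose, of 1 that fell and of MICB. The windows held 17 CpG dinucleotides in MICA, 18 in MICB, 28 in NCR3LG1, 27 in PVR and 19 in NECTIN2, against a median of 11 over all windows.

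Among the NKG2D ligands, MICA rose. MICA (ENSG00000204520, chr6:31399784-31415315, plus strand, GRCh38), a stress-induced HLA class I relative that does not present peptide, was at 17.7, 19.4 and 16.5 CPM in the DMSO libraries and at 28.0, 27.8 and 25.1 CPM in the FT671 libraries. The groups did not overlap, and the spread within each was small beside the gap between them. The log2 fold change was 0.57 (SE 0.114, 95% confidence interval 0.33 to 0.82), or 1.49-fold, with an adjusted p of 8.92e-04 by edgeR. Of all genes tested, 87.4% had a lower log2 fold change.

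MICB (ENSG00000204516, chr6:31494881-31511124, plus strand), which lies next to MICA in the HLA region and binds the same receptor, was at 73.5, 77.3 and 67.8 CPM in DMSO and at 84.4, 79.9 and 82.0 CPM in FT671. All FT671 libraries were above all DMSO libraries, though the closest libraries of the groups were nearly level. The log2 fold change of 0.17 (interval -0.01 to 0.34) did not pass the test (adjusted p = 0.106 by edgeR); with a correction for exon GC content it was 0.22 and passed (adjusted p = 0.00779). The ratio of MICA to MICB counts within a library, which does not depend on scaling, was 0.240, 0.251 and 0.243 in DMSO and 0.332, 0.348 and 0.306 in FT671. The ratio was thus higher in every FT671 library, by 1.34-fold (two-sided exact permutation test p = 0.1, the smallest that 3 against 3 libraries allow). The canonical transcripts of both genes are 92.1% identical over 1346 aligned bases, yet only 1.11% of 50-base windows of MICA occur exactly in MICB transcripts.

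The ULBP genes were low. ULBP1 (ENSG00000111981, chr6:149963943-149973715, plus strand), a GPI-anchored NKG2D ligand, was at 5.47, 7.14 and 8.32 CPM in DMSO and at 5.77, 4.33 and 4.38 CPM in FT671, from 79, 78, 45, 26, 24 and 49 counts. One FT671 library lay above the lowest DMSO library, so the groups overlapped. The log2 fold change of -0.52 (interval -0.98 to -0.05) did not pass (adjusted p = 0.0631 by edgeR), and without DMSO replicate 1 it was -0.69 and passed (adjusted p = 0.027). ULBP2 (ENSG00000131015, chr6:149942014-149949235, plus strand) had 21, 21 and 6 counts in DMSO and 7, 6 and 17 counts in FT671. Its levels of 1.50 ± 0.409 and 1.39 ± 0.263 CPM (SD, n = 3) overlapped, and the interval of its log2 fold change, -0.86 to 0.58, covers changes of either sign that this depth could not show. Exact 50-base matches to RAET1L, a neighbouring paralog, cover 29.7% of ULBP2's windows, so its counts are uncertain. ULBP3 (ENSG00000131019, chr6:150061053-150069121, minus strand) had 0, 1 and 1 counts in DMSO and 1, 0 and 1 in FT671, under the floor of 3 counts in every library. The remaining genes of the family, RAET1E, RAET1G and RAET1L, had at most 2 counts in any library and 0 of the 3 were tested.

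Of the NKp30 ligands, NCR3LG1 showed the highest fold increase among the 9 genes and BAG6 was the most abundant. NCR3LG1 (ENSG00000188211, chr11:17351800-17377341, plus strand), which encodes the membrane protein B7-H6, was at 78.7, 69.4 and 89.1 CPM in DMSO and at 128, 146 and 147 CPM in FT671. The lowest FT671 library was well above the highest DMSO library. The log2 fold change was 0.84 (SE 0.0959, interval 0.63 to 1.05), or 1.79-fold, with an adjusted p of 8.52e-06 by edgeR, and 94.2% of genes tested had a lower one. The gene encloses KCNJ11, a potassium channel gene on the opposite strand that shares 0 exon bases with it and that fell (log2 fold change -1.30, adjusted p = 7.67e-04).

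BAG6 (ENSG00000204463, chr6:31639028-31652705, minus strand) was at 1013, 1003 and 950.3 CPM in DMSO and at 1043, 1035 and 1039 CPM in FT671. The FT671 libraries were all above the DMSO libraries, by a small margin. BAG6 had a log2 fold change of 0.07 (interval -0.07 to 0.21, adjusted p = 0.375 by edgeR), which limits a change of BAG6 to a small size; with corrections for exon GC content or gene length it was 0.14 (adjusted p = 0.0462) and 0.17 (adjusted p = 0.0419). The ratio of NCR3LG1 to BAG6 counts was 0.0802 ± 0.0124 in DMSO and 0.135 ± 0.0109 in FT671 (SD, n = 3), or 1.69-fold.

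Both DNAM-1 ligands fell. PVR (ENSG00000073008, chr19:44643798-44666162, plus strand), an immunoglobulin-like adhesion molecule that is also the poliovirus receptor, was at 34.1, 33.2 and 32.3 CPM in DMSO and at 21.1, 21.6 and 23.1 CPM in FT671. The 3 libraries of each treatment lay close together and far from the other treatment. PVR had a log2 fold change of -0.59 (SE 0.103, interval -0.81 to -0.37), 1.51-fold lower, with an adjusted p of 3.14e-04 by edgeR, and 16.6% of genes tested had a lower one. PVR shares 19.5% of its exon bases with the unnamed same-strand gene ENSG00000279095, which had 0 counts in all 6 libraries; how reads in the shared stretch were counted is not given in the sources used here.

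NECTIN2 (ENSG00000130202, chr19:44846175-44889223, plus strand), a relative of PVR on the same chromosome arm, was at 128, 132 and 105 CPM in DMSO and at 102, 91.7 and 94.9 CPM in FT671. DMSO replicate 3 lay just above FT671 replicate 1, and the groups did not overlap. NECTIN2 had a log2 fold change of -0.35 (SE 0.092, interval -0.55 to -0.15), 1.27-fold lower, with an adjusted p of 0.00616 by edgeR. The count ratio of both genes, NECTIN2 over PVR, was 3.74, 3.99 and 3.25 in DMSO and 4.84, 4.23 and 4.12 in FT671, higher in every FT671 library (1.20-fold, exact permutation p = 0.1).

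**Figure D2:**
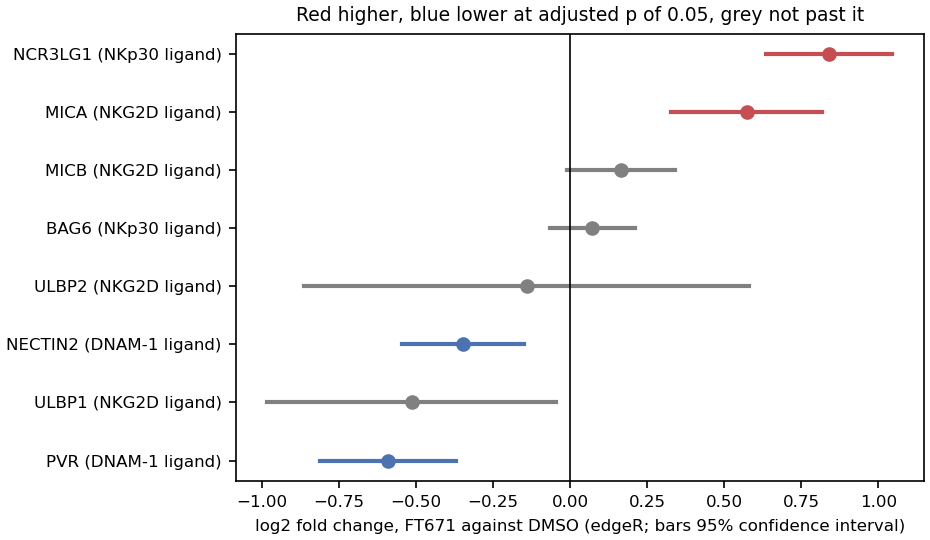
Log2 fold change of FT671 over DMSO for the 8 ligand genes tested, ordered by size, with 95% confidence intervals from the edgeR fit. NCR3LG1 (0.84) and MICA (0.57) lie above 0 and PVR (-0.59) and NECTIN2 (-0.35) below it, each with its interval clear of 0.

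The changes in NCR3LG1, MICA and PVR can also be read as ratios within a library. These ratios restate the single-gene results without any scaling and add no separate support. The count ratio of NCR3LG1 to PVR was 2.31, 2.09 and 2.75 in DMSO and 6.05, 6.75 and 6.38 in FT671. Every FT671 ratio was above every DMSO ratio, with means of 2.39 ± 0.337 and 6.39 ± 0.349 (SD, n = 3) and a 2.69-fold change. The ratio of MICA to PVR went from 0.537 ± 0.042 to 1.23 ± 0.126, or 2.29-fold. In all, 5 ratios were computed, each with an exact permutation p of 0.1.

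**Figure D3:**
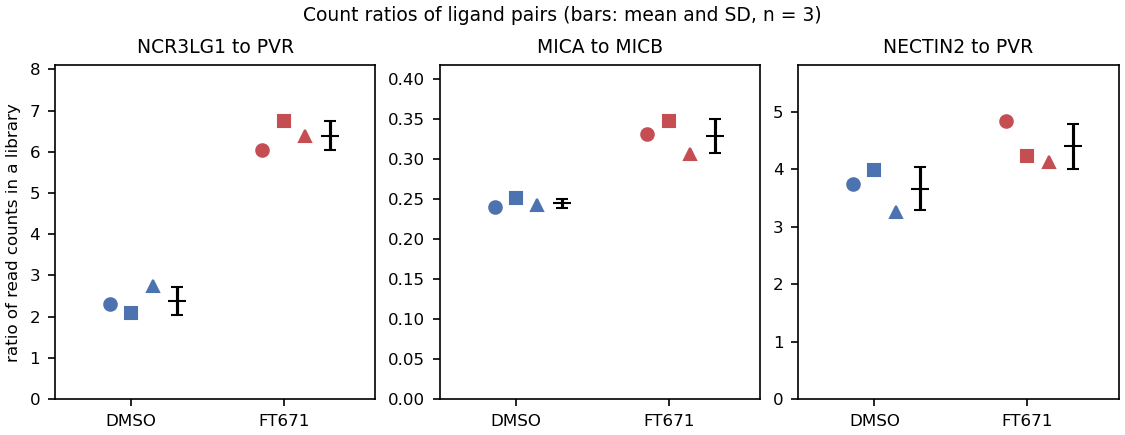
Ratios of ligand counts within each of 3 DMSO and 3 FT671 libraries, on linear axes from 0, with group means and SDs. NCR3LG1 over PVR goes from 2.39 to 6.39, and MICA over MICB from 0.245 to 0.329.

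Per length, the 8 transcripts tested covered a wide range. On the RPKM scale (CPM per kilobase of merged exons), the DMSO levels ran from BAG6 at 156 ± 5.31 through NECTIN2 at 32.5 ± 3.86, MICB at 26.0 ± 1.70, NCR3LG1 at 12.4 ± 1.55, MICA at 4.63 ± 0.388, PVR at 3.18 ± 0.0826 and ULBP1 at 2.17 ± 0.446 to ULBP2 at 1.12 ± 0.306 (SD, n = 3). Neighbours in this order did not overlap between libraries. Of all genes tested, 98.3% had a lower DMSO level than BAG6, 89.2% than NECTIN2, 47.7% than MICA and 17.5% than ULBP2. In the FT671 libraries MICB, at 28.6 to 30.2 RPKM, stood above NECTIN2, at 24.5 to 27.3 RPKM, the reverse of their order in DMSO; with the Ensembl canonical transcript length NECTIN2 stayed above MICB in FT671 too (means of 35.8 and 34.0 RPKM). NCR3LG1 rose to 22.0 ± 1.72 RPKM and MICA to 7.00 ± 0.416 RPKM, while PVR fell to 2.10 ± 0.0969 RPKM. The place of MICA also depends on the length used: with the canonical transcript its DMSO mean was 13.0 RPKM, just above NCR3LG1.

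**Figure D4:**
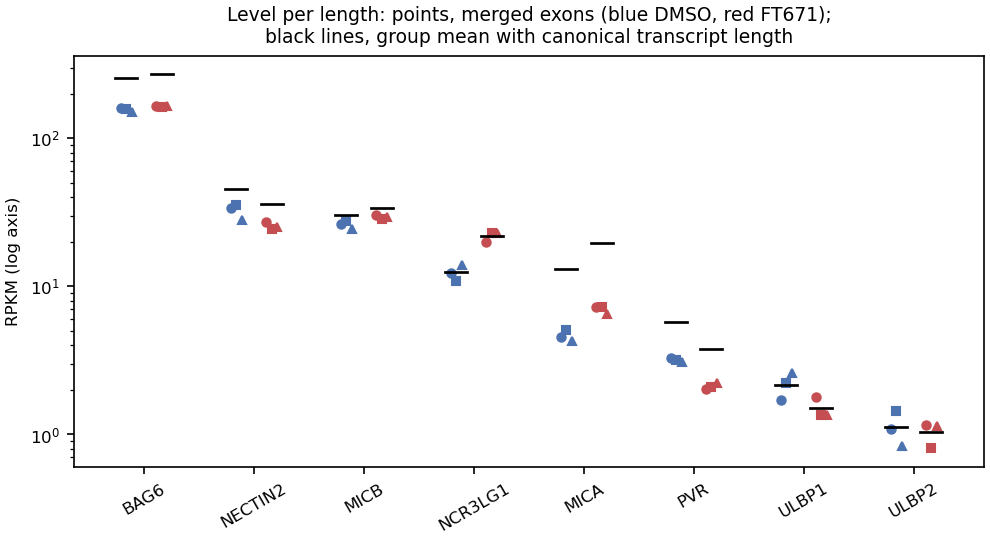
RPKM of the 8 ligand genes tested in each library on a log axis, ordered by DMSO level (points, merged exons; black lines, group means with the canonical transcript length). BAG6 (156 in DMSO) is far above the others, and MICB and NECTIN2 exchange places between treatments in the points but not in the lines.

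Genes with other parts in NK recognition are given by the lists they belong to. Of all genes tested, 23.6% were higher and 26.5% lower at adjusted p 0.05, and the counts of each list stand beside these shares. Among 14 other activating and adhesion ligands, 9 were tested, 2 were higher and 5 lower, and the list's median was -0.26 on the log2 scale. PCNA, the replication clamp, is known as a binding partner of NKp44 that inhibits NK cells, so that it differs in sign from the rest of this list; it went from 112.8 ± 5.90 to 41.7 ± 3.48 CPM (log2 fold change -1.44, adjusted p = 5.15e-08). SLAMF6, a homophilic receptor of the SLAM family, went from 13.1 ± 3.37 to 6.55 ± 0.119 CPM (-0.95, adjusted p = 9.98e-04). CD58, the ligand of CD2, fell (-0.66, adjusted p = 0.0239). ICAM3, a ligand of LFA-1, rose from 14.6 ± 2.14 to 22.7 ± 1.16 CPM (0.60, adjusted p = 0.00159). However, 75.4% of ICAM3's exon bases overlap an opposite-strand noncoding gene that also rose (0.55, adjusted p = 0.0063 by edgeR). The part of shared reads in the ICAM3 result was not tested. The count of lower genes was 3 without DMSO replicate 2, FT671 replicate 2 or FT671 replicate 3, with DESeq2's Wald test and after thinning. That of higher genes was 1 without DMSO replicate 1, FT671 replicate 1 or FT671 replicate 2, with library totals alone and with the length correction. Of 6 genes for other nectins, CADM1 and the receptors CD96 and CD226 (DNAM-1), only CD96 was tested (-0.58, adjusted p = 0.0736). Without FT671 replicate 1, 1 gene of this list was called lower.

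Of 15 inhibitory ligands, 7 were tested, 4 were higher and 1 lower (23.6% and 26.5% of all genes tested). Their median log2 fold change was 0.31. HLA-B and HLA-C, whose products engage inhibitory NK receptors, were at low levels. HLA-B went from 0.584 ± 0.234 to 1.60 ± 0.0363 CPM (log2 fold change 1.36, adjusted p = 0.0103). It had 12, 4 and 3 counts in DMSO, down to the floor, and 7, 9 and 18 in FT671. HLA-B passed the filter on low counts only through its FT671 libraries, so its call as higher is not independent of that filter. HLA-C rose from 2.45 ± 0.341 to 4.82 ± 1.38 CPM (0.98, adjusted p = 0.00601). HLA-E, which NKG2A reads, was already at 115.1 ± 8.84 CPM and rose to 135.1 ± 9.37 CPM (0.22, adjusted p = 0.0387). HLA-B and HLA-C share near-identical stretches, so their counts are uncertain. CD47 fell (-0.25, adjusted p = 0.0474); this call was lost under 11 of 17 alternatives, among them leaving out any library but DMSO replicate 3 (0 lower). Leaving out any library lowered the number higher, to 2 without DMSO replicate 1, 1 without FT671 replicate 3 and 3 without any of the others. It was 2 after thinning. With library totals, no filter, a minimum of 10 counts, DESeq2's Wald test or the length correction alone it was 3.

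In the apoptotic machinery that killing by death ligands uses, each gene that passed the test was lower. Of 10 death receptors and initiator caspase genes, 7 were tested, 0 were higher and 4 lower by edgeR at adjusted p 0.05. Of all genes tested, 23.6% were higher and 26.5% lower. The median of the 7 was -0.52 on the log2 scale. FADD, the adaptor of death receptors, went from 11.1 ± 1.66 to 4.29 ± 1.06 CPM (-1.49, adjusted p = 4.69e-05). Of its exon bases, 59.2% overlap an opposite-strand noncoding gene that also fell (-1.505, adjusted p = 6.57e-05 by edgeR). With the strand setting not given, the reads of both genes cannot be told apart in the overlap. CASP8 fell from 16.7 ± 1.03 to 9.44 ± 0.531 CPM (-0.83, adjusted p = 1.94e-04) and CASP10 fell to 21.7 ± 2.43 CPM (-0.71, adjusted p = 1.74e-04). TNFRSF10B, a TRAIL receptor, fell from 43.4 ± 0.499 to 30.7 ± 2.92 CPM (-0.52, adjusted p = 8.81e-04), while the other TRAIL death receptor, TNFRSF10A, had a log2 fold change of -0.12 (adjusted p = 0.387). Opposite-strand RHOBTB2 overlaps 7.5% of TNFRSF10B's exon bases and also fell (-0.73, adjusted p = 0.0162 by edgeR). Opposite-strand TNFRSF10A-DT overlaps 9.09% of TNFRSF10A's and rose (0.67, adjusted p = 2.28e-04 by edgeR), and TNFRSF10A-AS1 overlaps 7.65% and did not pass. The part of shared reads in both receptors was not tested.

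Of 12 genes for shedding and release of ligands, 8 were tested, 3 were higher and 3 lower (23.6% and 26.5% of all genes tested). Leaving out any single library gave 2 higher and 2 to 3 lower, and the other alternatives gave 2 to 3 of each. Of the 3 higher, TIMP3 lay nearest to the threshold. ADAM17, a membrane protease that can cleave MICA and MICB from the surface, fell from 54.7 ± 4.06 to 30.7 ± 3.83 CPM (-0.82, adjusted p = 3.51e-05). Of its exon bases, 10.3% overlap IAH1 on the other strand, which also fell (-1.17, adjusted p = 7.04e-05 by edgeR). TIMP3, an inhibitor of ADAM17, rose from 2.02 ± 0.175 to 3.22 ± 0.179 CPM (0.65, adjusted p = 0.0432), TIMP1 rose from 196.4 ± 27.5 to 285.7 ± 8.54 CPM (0.54, adjusted p = 2.54e-04), and RHBDF2, which helps ADAM17 mature, rose from 3.60 ± 0.676 to 6.14 ± 0.218 CPM (0.73, adjusted p = 0.00938). Surface and released ligand protein were not analysed here.

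BAG6 works in a complex that hands tail-anchored proteins to the membrane, and 3 genes of that route fell while BAG6 itself did not pass the test. Of 8 such genes, all tested, 0 were higher and 3 lower by edgeR (23.6% and 26.5% of all genes tested). With GC correction 2 were higher and with length correction 1. Without FT671 replicate 2 or FT671 replicate 3, 2 were lower. UBL4A, which binds BAG6 directly, fell from 89.8 ± 11.2 to 44.9 ± 3.74 CPM (log2 fold change -1.01, adjusted p = 3.59e-06). GET3, the targeting ATPase, fell from 27.5 ± 0.766 to 18.3 ± 1.12 CPM (-0.60, adjusted p = 4.02e-04), and GET1, part of its membrane receptor, fell from 6.81 ± 1.95 to 3.78 ± 0.969 CPM (-0.82, adjusted p = 0.0142). The co-chaperone SGTA had a log2 fold change of 0.08 (adjusted p = 0.368).

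Of 21 genes described as regulators of NKG2D ligands, 21 were tested, 3 were higher and 10 lower (23.6% and 26.5% of all genes tested). The median was -0.10 on the log2 scale. The number higher was 5 without DMSO replicate 3 or with the length correction, and 6 with length correction and replicate block. XBP1, a factor of the unfolded protein response, fell from 190.6 ± 14.1 to 103.6 ± 4.34 CPM (-0.88, adjusted p = 9.47e-07). E2F2 (-0.72, adjusted p = 9.37e-05) and E2F3 (-0.76, adjusted p = 3.13e-05), cell cycle factors, also fell. SP1, which binds GC boxes, and HSF1, which binds heat shock elements, did not pass the test (-0.08, adjusted p = 0.379, and -0.01, adjusted p = 0.876).

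**Figure D5:**
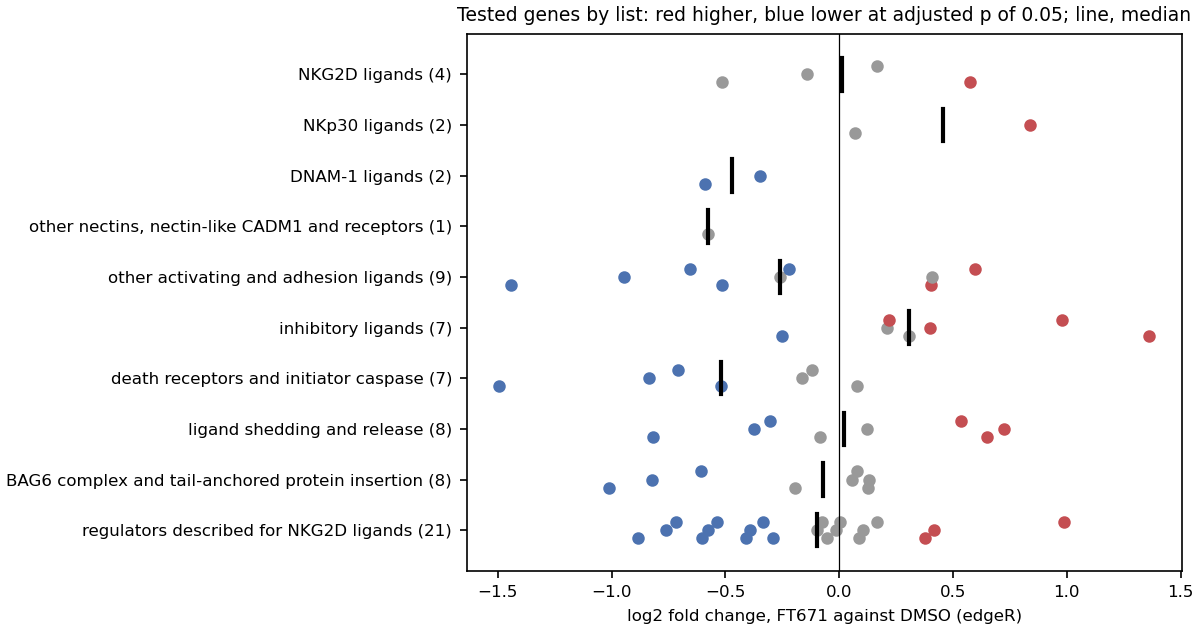
Log2 fold change of FT671 over DMSO for each gene tested in the ligand groups and the lists of other genes, 1 point per gene, with a line at each median. Among the lists of other genes with more than 1 gene tested, medians lie between -0.52 for death receptors and initiator caspases and 0.31 for inhibitory ligands.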

How the data were processed

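RNA-seq covered K562 cells given DMSO or 10 μM FT671 for 48 h (3 libraries each). According to the study's methods and the labels, RNA was depleted of ribosomal RNA (KAPA RNA HyperPrep, RiboErase) and sequenced paired-end on a NextSeq500. The authors used STAR (two-pass, hg38) and deposited raw counts per gene; the STAR version, annotation release and strand setting are not given in the sources used here. The study describes independent experiments, but the labels do not say whether the libraries came from separate cultures, so p-values measure the spread between these libraries.

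Of 60609 identifiers, 60295 matched GENCODE release 44, which gave symbols, positions and exon lengths. Counts were filtered with filterByExpr (13895 genes kept), scaled by TMM and tested with edgeR's quasi-likelihood test without covariates, with Benjamini-Hochberg adjustment over all genes tested (edgeR 4.0.16, R 4.3.3). Total counts were between 4555220 and 14250500, and replicates differed by more than counting error (chi-square per degree of freedom 2.07 to 8.73), so none was a copy. The largest values, 7.55 and 8.73, came from DMSO replicate 3 against the other DMSO libraries, and every other pair was at most 3.2. CPM and RPKM were computed here from the counts and TMM-scaled totals. Every count ratio was tested by an exact two-sided permutation test, and adjustment over all of them leaves p at 0.1. Motifs were searched on both strands of the 250 bases before the start in 35116 RefSeq promoter windows (Python 3.11.15), and shared sequence was counted as exact 50-base windows of GENCODE transcripts. Scripts were tested on simulated counts. Besides the 9 ligands, the genes overlapping them, USP7 and TRIM27, the text names from each list up to 4 genes with the largest fold change among those past an adjusted p of 0.05, provided that their groups did not overlap and their mean reached 1 CPM, and up to 2 of the most abundant genes that did not pass; marker genes stand outside that rule, and some genes of the lists are not reported here. The ligands and lists were chosen with earlier results of these data known. Alternatives were other scalings (DESeq2 size factors, library totals), no filter, a minimum of 10 counts, DESeq2's Wald test (DESeq2 1.42.0), corrections for gene length and exon GC content, the replicate number as a block, thinning to the smallest total, leaving out each library, and a threshold of 1e-05.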

Additional observations from a re-analysis of the deposited data

How the results depend on the processing

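At an adjusted p of 0.05, 2 ligands were higher and 2 lower with each of the other scalings and filters, with DESeq2's Wald test, after thinning and with the replicate block. With the GC correction 4 were higher, and likewise 4 with GC correction and replicate block (MICB and BAG6 in addition). With the length correction 3 were higher (BAG6 in addition), and with length correction and replicate block 3 were lower (ULBP1 in addition). At 1e-05, 1 was higher and 0 were lower. Leaving out one library at a time gave 2 to 2 higher and 2 to 3 lower, the 3 being without DMSO replicate 1. MICA ranged from 0.41 to 0.66, NCR3LG1 from 0.76 to 0.94, PVR from -0.63 to -0.45 and NECTIN2 from -0.44 to -0.25 in log2 fold change over the alternatives. NECTIN2 came nearest to the threshold, with an adjusted p of 0.0418 without FT671 replicate 2. Libraries with the same replicate number did not all deviate together (r = 0.115, -0.0605 and 0.14), so the numbers were not taken to pair them, and the replicate block alone changed no call of a ligand. Of 272 recomputed counts over the other gene lists, 240 stayed within 1.5 times the main count. This number says little about stability, because it includes the other NKG2D ligands, with 0 genes tested, and the nectin list, with 1. A count of 2 against 3 also lies within that limit. Depth limited ULBP2 and ULBP3, whose libraries held at most 21 counts and 1 count.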
